A study of Mus musculus with 12 samples.

Results

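The granule genes of neutrophils and their myeloid precursors were examined in the livers of 12 male C57BL/6J-background mice, all fed a high-fat diet (HFD). The set held 9 genes, Prtn3, Elane, Mpo, Ctsg, Ngp, Camp, Ltf, S100a8 and S100a9. They were chosen by symbol, with FPKM values of these same livers already known, and which of those values guided the choice is not recorded, so that differences of the members are given as a description. All 9 were present among the 23849 symbols of the deposited expression table. The mice were 8 weeks old in the submitters' design text and were fed HFD for 6 weeks, the last 2 of them with vehicle or with Policaptil Gel Retard. This product, named Libramed in the sample labels, is a blend of fibers that forms a gel in the gut. Treated mice received it daily in drinking water through a stomach tube, and vehicle mice received the water alone. Whole liver was collected at ZT0 or ZT12, where zeitgeber time (ZT) counts hours from lights on, which gave 4 groups of 3 livers. Groups are named vehicle or Policaptil with the time of harvest. Neither a normal diet nor sorted cells are among these 12 libraries.

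Neutrophils carry their antimicrobial proteins in granules that are filled in sequence while the cell matures in the bone marrow. Azurophil granules come first, at the promyelocyte stage, and hold myeloperoxidase and the serine proteases of the elastase family. Specific granules follow, with lactoferrin and the cathelicidin precursor, while the calprotectin subunits S100A8 and S100A9 fill the cytosol of the mature cell. Transcripts of the azurophil proteins are largely switched off before neutrophils leave the marrow, whereas S100a8 and S100a9 mRNA remains abundant in blood neutrophils. In the liver, neutrophils are a minority within the sinusoids, and most of the RNA is from hepatocytes.

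The members lie on 5 chromosomes of the mouse genome (GRCm38, the mm10 assembly of the authors, with GENCODE vM21 genes). Prtn3 (chromosome 10, 79874476 to 79883174, plus strand) and Elane (chromosome 10, 79886247 to 79888215, plus strand) are separated by 3072 bases. S100a8 (chromosome 3, 90668978 to 90670035, plus strand) and S100a9 (chromosome 3, 90692632 to 90695721, minus strand) are separated by 22596 bases. Camp (109847379 to 109849617, minus strand), Ngp (110419747 to 110423012, plus strand) and Ltf (111019271 to 111042767, plus strand) lie on chromosome 9. Mpo is on chromosome 11 (87793581 to 87804413, plus strand) and Ctsg on chromosome 14 (56099881 to 56102574, minus strand). Prtn3 and Elane gave unlike profiles across the livers and S100a8 and S100a9 nearly the same one, and for that reason the 250 bases upstream of their RefSeq starts (assembly GRCm38.p6) are shown here, 5′ to 3′ on the strand of the gene. These are chr10:79879417-79879666 for Prtn3 (plus strand), chr10:79886062-79886311 for Elane (plus strand), chr3:90668821-90669070 for S100a8 (plus strand) and chr3:90695722-90695971 for S100a9 (minus strand). The RefSeq starts of Prtn3, Elane and S100a8 lie inside the GENCODE genes given above. The Prtn3 window therefore lies within the gene, and the Elane and S100a8 windows end within theirs. Capitals mark the letters GAGGAAG, a core recognized by the myeloid factor PU.1, or TTGCNNAA, a core of C/EBP sites, on either strand.
Prtn3: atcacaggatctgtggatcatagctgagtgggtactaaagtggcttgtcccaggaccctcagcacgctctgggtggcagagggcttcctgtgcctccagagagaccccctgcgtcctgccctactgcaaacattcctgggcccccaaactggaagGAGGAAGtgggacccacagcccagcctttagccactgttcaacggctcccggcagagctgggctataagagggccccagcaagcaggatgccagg
Elane: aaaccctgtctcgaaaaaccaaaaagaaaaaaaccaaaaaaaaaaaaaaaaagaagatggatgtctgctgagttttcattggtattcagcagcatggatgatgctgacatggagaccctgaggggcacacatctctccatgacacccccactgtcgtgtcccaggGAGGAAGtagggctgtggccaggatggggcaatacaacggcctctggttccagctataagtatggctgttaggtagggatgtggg
S100a8: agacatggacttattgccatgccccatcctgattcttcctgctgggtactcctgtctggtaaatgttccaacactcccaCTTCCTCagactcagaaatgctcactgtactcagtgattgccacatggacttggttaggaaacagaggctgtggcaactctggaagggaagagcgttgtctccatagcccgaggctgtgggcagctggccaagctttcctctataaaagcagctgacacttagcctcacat
S100a9: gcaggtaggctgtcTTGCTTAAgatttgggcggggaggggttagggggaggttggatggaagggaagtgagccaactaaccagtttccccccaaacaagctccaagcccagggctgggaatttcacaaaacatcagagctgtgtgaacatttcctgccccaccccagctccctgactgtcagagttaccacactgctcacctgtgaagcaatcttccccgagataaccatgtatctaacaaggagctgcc
Counted from the start, a GAGGAAG match began at position -95 in Prtn3, at -85 in Elane and, on the opposite strand, at -171 in S100a8. In S100a9 a TTGCNNAA match began at position -236. Over the same window of 32851 RefSeq promoters, GAGGAAG was present in 10.6%, TTGCNNAA in 9.56% and TTCNNNGAA, a core of STAT sites, in 7.02%. Of the other members, Mpo held 2 GAGGAAG matches and Ctsg 1, Ngp held 2 TTGCNNAA matches and Ltf 1, and Ctsg held 1 TTCNNNGAA match. Camp held none of the 3. A match of letters is a description and not a binding site.

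Expression was given as FPKM, reads scaled to transcript length and to the mapped reads of the library, so that levels can be set side by side between genes. Of the 9 genes, 3 averaged 1 FPKM or more across all livers and could be tested with the other 9803 genes above that level, namely Prtn3 (mean 6.97 FPKM), S100a8 (2.72 FPKM) and S100a9 (2.43 FPKM). Elane followed with a mean of 0.425 FPKM, and Camp (0.117), Ngp (0.0781), Ltf (0.0272), Mpo (0.0259) and Ctsg (0.00908 FPKM) were lower still. The deposited table holds no read counts. From the smallest values of 925 rarely detected genes, 1 read was estimated to be worth 0.0442 to 0.0817 FPKM for a transcript of 1 kilobase, and relative depth differed 1.85-fold between the deepest and the shallowest library. The shallowest was Policaptil ZT12 replicate 2. These read numbers are rough, but they place a value of 0.1 FPKM at very few reads. Hepatocyte genes were at the top of the table (Apoa2 mean 28092 FPKM, Apoa1 24802 FPKM), whereas albumin, Alb, was listed at 0 in all 12 livers, so that a listed 0 can be a failed estimate.

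Prtn3 encodes proteinase 3, a serine protease of azurophil granules, and it was the most abundant member, with the widest fold range. In vehicle livers at ZT0 Prtn3 was 25.6, 5.50 and 9.92 FPKM (replicates 1, 2 and 3). In Policaptil livers at ZT0 it was 0.453, 4.41 and 0.151 FPKM. All 3 Policaptil values were below all 3 vehicle values, although the highest of the former, in replicate 2, lay close to the lowest of the latter. At ZT12 Prtn3 was 2.21, 7.67 and 13.7 FPKM in vehicle livers and 4.50, 7.17 and 2.30 FPKM in Policaptil livers, and these groups overlapped throughout. Group means were 13.7 ± 10.6 (vehicle ZT0), 1.67 ± 2.38 (Policaptil ZT0), 7.88 ± 5.77 (vehicle ZT12) and 4.66 ± 2.44 FPKM (Policaptil ZT12; SD, n = 3 each). The highest liver held 170-fold the level of the lowest.

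On the log2(FPKM + 1) scale, which understates changes of low genes, Prtn3 differed between Policaptil and vehicle by -2.57 at ZT0 (SE 0.69, adjusted p = 0.439, limma with Benjamini-Hochberg adjustment over 9806 genes). Prtn3 was thus not called, and neither was any other gene in this comparison. Its unadjusted p was 0.00710, and 9.23% of all genes tested had an unadjusted p below 0.05 at ZT0. Groups that do not overlap are common here as well, since 9.94% of the genes tested had all 3 Policaptil values below all 3 vehicle values. The difference ran from -3.26 to -2.01 as each of the 6 livers was left out, always with lower values under Policaptil. At ZT12 the difference was -0.49 (SE 0.57, adjusted p = 0.866), where 0 members and 6.74% of genes had an unadjusted p below 0.05, and over both times it was -1.53 (SE 0.56, adjusted p = 0.407). Between ZT0 and ZT12 Prtn3 differed by -0.73 in vehicle livers (SE 0.67, adjusted p = 0.533) and by 1.34 in Policaptil livers (SE 0.60, adjusted p = 0.189). The treatment effects at both times differed by 2.08 (interaction, SE 1.00, adjusted p = 0.755). Without Policaptil ZT0 replicate 2, the time difference in Policaptil livers became 2.03 (adjusted p = 0.0337), and among the livers left out in turn only this one brought it past the threshold. With no liver left out, 12.4% of the genes tested passed it in this comparison.

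**Figure D1:**
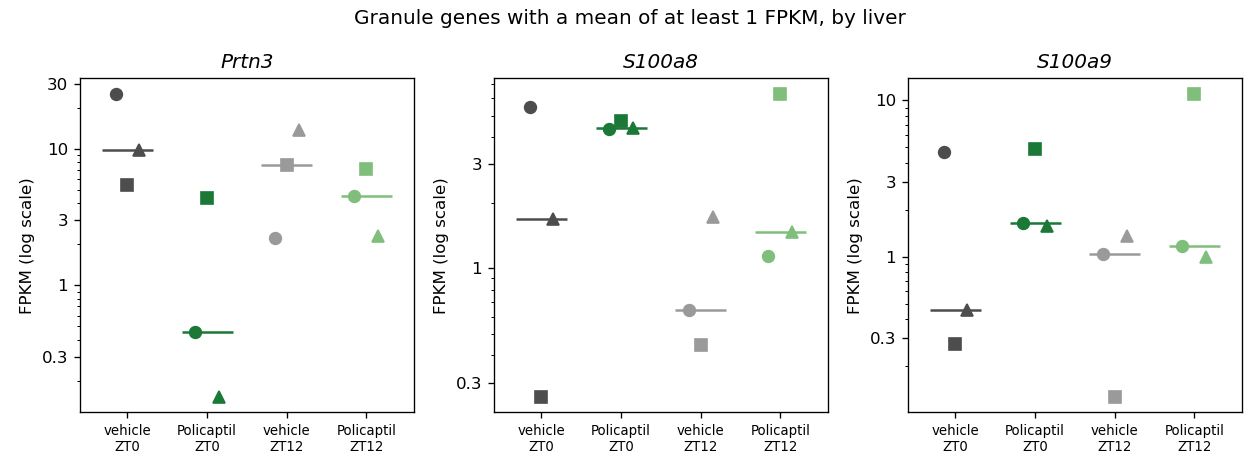
FPKM on a log axis for Prtn3, S100a8 and S100a9 in the 12 livers by group; symbols mark replicates 1 (circle), 2 (square) and 3 (triangle), and lines mark group medians. At ZT0 Prtn3 is at or below 4.41 FPKM in Policaptil livers and at or above 5.50 FPKM in vehicle livers, while S100a8 and S100a9 overlap between treatments at both times.

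Elane, which encodes neutrophil elastase and is the neighbour of Prtn3, did not share its profile. It was above 0 in all 12 livers but never exceeded 0.792 FPKM. In vehicle livers Elane was 0.468, 0.646 and 0.295 FPKM at ZT0 and 0.226, 0.162 and 0.369 FPKM at ZT12. In Policaptil livers it was 0.408, 0.334 and 0.792 FPKM at ZT0 and 0.225, 0.781 and 0.398 FPKM at ZT12. The groups overlapped in every comparison, and the spread within a group was as wide as that between groups. The liver with the least Prtn3 (Policaptil ZT0 replicate 3, 0.151 FPKM) was the one with the most Elane. Over the 12 livers Spearman's rho between Prtn3 and Elane was -0.17, a description over livers of 4 groups. The level of Prtn3 exceeded that of Elane in 11 of 12 livers, the exception being Policaptil ZT0 replicate 3, and replicate 1 of the same group was nearly equal (0.453 against 0.408 FPKM).

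The gene on the other side of Elane, Cfd, encodes complement factor D (adipsin), a serine protease made chiefly by adipocytes, and it starts 2637 bases downstream. At ZT0 Cfd was 7.97, 2.85 and 7.10 FPKM in vehicle livers and 0.613, 4.99 and 0.309 FPKM in Policaptil livers. At ZT12 it was 11.4, 42.8 and 26.1 FPKM in vehicle livers and 2.74, 9.47 and 11.2 FPKM in Policaptil livers. The livers lowest in Prtn3, replicates 1 and 3 of Policaptil ZT0, were thus also lowest in Cfd, and Cfd did not overlap between treatments at ZT12, where 13.1% of the genes tested did not overlap. Over both times it differed by -1.57 (SE 0.44, adjusted p = 0.336).

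Myeloperoxidase and cathepsin G, the partners of the elastase family in azurophil granules, were near or at 0. Mpo was above 0 in 5 livers, namely vehicle ZT0 replicate 3 (0.0249 FPKM), Policaptil ZT0 replicate 3 (0.0460), vehicle ZT12 replicate 2 (0.0613) and Policaptil ZT12 replicates 2 (0.0770) and 3 (0.102 FPKM). These levels stood for an estimated 1.24 to 4.75 reads. Ctsg was above 0 only in vehicle ZT12 replicate 2, at 0.109 FPKM or an estimated 2.47 reads. At this depth no difference of Mpo or Ctsg between groups was detectable. The ficolin Fcnb, another product of maturing myeloid cells, was listed at 0 in all 12 livers. The high Prtn3 values therefore had no counterpart in Elane, Mpo or Ctsg: vehicle ZT0 replicate 1, with Prtn3 at 25.6 FPKM and an estimated 480 reads, listed both Mpo and Ctsg at 0.

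The specific granule genes were detected in few livers, and largely in the same ones. Camp encodes the precursor of the cathelicidin peptide, and it was above 0 only in replicate 2 of Policaptil ZT0 (0.580 FPKM) and replicate 2 of Policaptil ZT12 (0.823 FPKM). Ngp, which encodes neutrophilic granule protein, was 0.199 FPKM in the former and 0.645 FPKM in the latter, and 0.0424 FPKM in vehicle ZT12 replicate 3 and 0.0514 FPKM in Policaptil ZT12 replicate 3. Ltf, which encodes the iron-binding protein lactoferrin, was 0.0619 and 0.230 FPKM in these replicates 2, and it was otherwise above 0 in vehicle ZT12 replicate 2 (0.0153) and Policaptil ZT12 replicate 3 (0.0198 FPKM). The 2 livers held an estimated 3.62 to 9.64 reads of each gene, and the remaining detections about 1 read each. No vehicle liver at ZT0 was above 0 for any of the 3 genes. A fold against that group was not computed, because it is listed at 0.

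With no minimum level, Camp differed between Policaptil and vehicle by 0.22 at ZT0 and 0.29 at ZT12 on the log2(FPKM + 1) scale (adjusted p = 0.795 and 0.826, limma over all genes above 0), Ngp by 0.09 and 0.24 and Ltf by 0.03 and 0.10 (the same adjusted p values). Each of these differences rests on 1 liver per Policaptil group. Without Policaptil ZT12 replicate 2 the ZT12 difference became 0.02 for Ngp, 0.01 for Ltf and 0 for Camp. Over the 12 livers, most of them at 0, Spearman's rho was 0.77 between Ngp and Camp, 0.80 between Ngp and Ltf and 0.77 between Camp and Ltf. The same Policaptil ZT12 replicate 2 also had the most Cd177 (0.129 FPKM), a neutrophil surface protein above 0 in only 3 livers, and the most Chil3 (0.329 FPKM), a chitinase-like protein of myeloid cells. Some other neutrophil markers were low in this liver, in which Csf3r was 0.0810 FPKM, the second lowest of 12, Mmp9 was 0.0277 FPKM and Retnlg and Mmp8 were listed at 0. Other ZT12 livers shared most of these low values. There Mmp8 was listed at 0 throughout and Retnlg in all but vehicle replicate 3, and Mmp9 in Policaptil livers was 0.0277 to 0.0393 FPKM. Itgam (0.211 FPKM), Padi4 (0.102 FPKM) and Clec4e (0.0469 FPKM) were highest in Policaptil ZT12 replicate 2, and Ms4a3 (0.0782 FPKM) was above 0 only there.

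**Figure D2:**
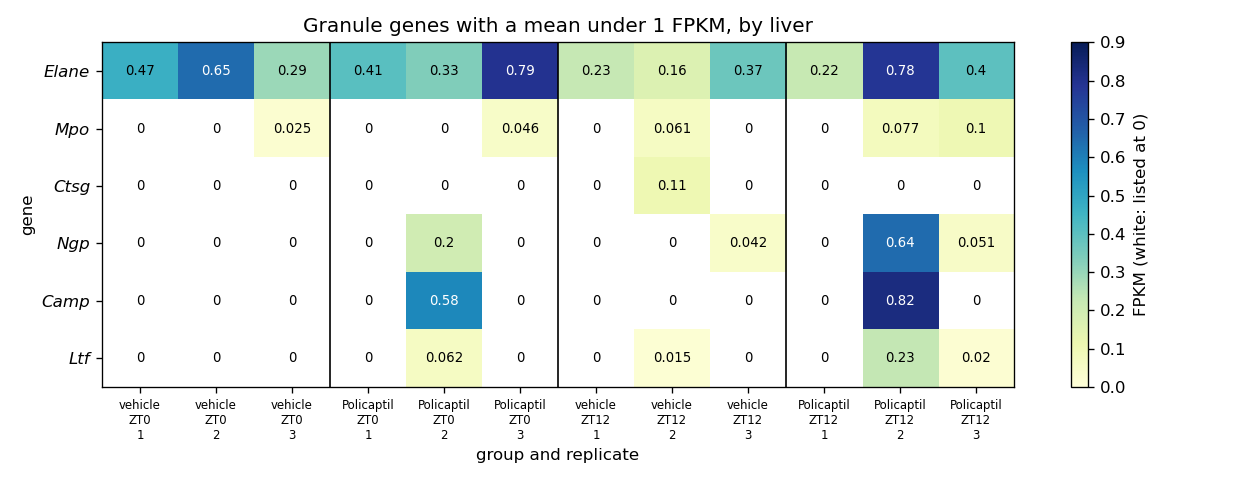
FPKM of the 6 members with a mean under 1 FPKM in each of the 12 livers; colour gives FPKM on a linear scale and white cells are listed at 0. Elane is above 0 in every liver, whereas Camp is above 0 in replicate 2 of Policaptil ZT0 and of Policaptil ZT12 alone, the livers with the most Ngp and Ltf.

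S100a8 and S100a9 encode the subunits of calprotectin, a calcium- and zinc-binding protein that makes up much of the neutrophil cytosol and is also found in monocytes. S100a8 was 5.48, 0.257 and 1.68 FPKM in vehicle livers at ZT0 and 4.36, 4.72 and 4.41 FPKM in Policaptil livers at ZT0. At ZT12 it was 0.645, 0.446 and 1.72 FPKM in vehicle livers and 1.14, 6.31 and 1.46 FPKM in Policaptil livers. The Policaptil values at ZT0 were close together, with a mean of 4.50 ± 0.194 FPKM, and lay above 2 of the 3 vehicle livers, but vehicle replicate 1 was higher than all of them. Group means of the other 3 groups were 2.47 ± 2.70 (vehicle ZT0), 0.936 ± 0.683 (vehicle ZT12) and 2.97 ± 2.90 FPKM (Policaptil ZT12; SD, n = 3).

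S100a9 gave 4.65, 0.276 and 0.453 FPKM in vehicle livers at ZT0 and 1.64, 4.85 and 1.56 FPKM in Policaptil livers at ZT0. At ZT12 it was 1.04, 0.126 and 1.36 FPKM in vehicle livers and 1.18, 11.05 and 0.998 FPKM in Policaptil livers. All comparisons of groups overlapped, and Policaptil ZT12 replicate 2 was the highest liver for both calprotectin genes. Group means were 1.79 ± 2.47 (vehicle ZT0), 2.68 ± 1.88 (Policaptil ZT0), 0.843 ± 0.641 (vehicle ZT12) and 4.41 ± 5.75 FPKM (Policaptil ZT12; SD, n = 3). The genes ranked the livers in nearly the same order, with a Spearman's rho of 0.92 over the 12 livers, which share library depth and group. Prtn3 did not follow this order (rho 0.08 with S100a8 and -0.09 with S100a9).

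S100a8 differed between Policaptil and vehicle by 0.98 at ZT0 (SE 0.52, adjusted p = 0.632), by 0.86 at ZT12 (SE 0.48, adjusted p = 0.750) and by 0.92 over both times (SE 0.38, adjusted p = 0.466) on the log2(FPKM + 1) scale. For S100a9 these differences were 0.64 (SE 0.60, adjusted p = 0.784), 1.09 (SE 0.69, adjusted p = 0.759) and 0.86 (SE 0.49, adjusted p = 0.568). Over both times the unadjusted p was below 0.05 for Prtn3 (0.0187) and S100a8 (0.0316), with opposite signs, against 10.1% of all genes tested. No member was called in that comparison, where 0.0204% of genes were. Single livers set the size of the calprotectin differences. Without vehicle ZT0 replicate 1 the ZT0 difference was 1.58 for S100a8 (adjusted p = 0.224) and 1.32 for S100a9 (adjusted p = 0.335), and without Policaptil ZT12 replicate 2 the ZT12 difference was 0.30 for S100a8 (adjusted p = 0.883) and 0.25 for S100a9 (adjusted p = 0.916).

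Between ZT0 and ZT12, S100a8 differed by -0.59 in vehicle livers (adjusted p = 0.557) and by -0.70 in Policaptil livers (adjusted p = 0.329), and S100a9 by -0.32 (adjusted p = 0.777) and 0.14 (adjusted p = 0.920). None of the 3 tested members was called for time, compared with 10.4% of genes in vehicle and 12.4% in Policaptil livers, and 0 had an unadjusted p below 0.05 in limma, compared with 27.4% and 29.2%. S100a8 at ZT12 passed in Policaptil livers only when replicate 2 of that group was left out (-1.26, adjusted p = 0.00687). The interaction of treatment and time was -0.12 for S100a8 (adjusted p = 0.987) and 0.45 for S100a9 (adjusted p = 0.961), and it called 0 genes in limma, with 6.63% of genes at an unadjusted p below 0.05.

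**Figure D3:**
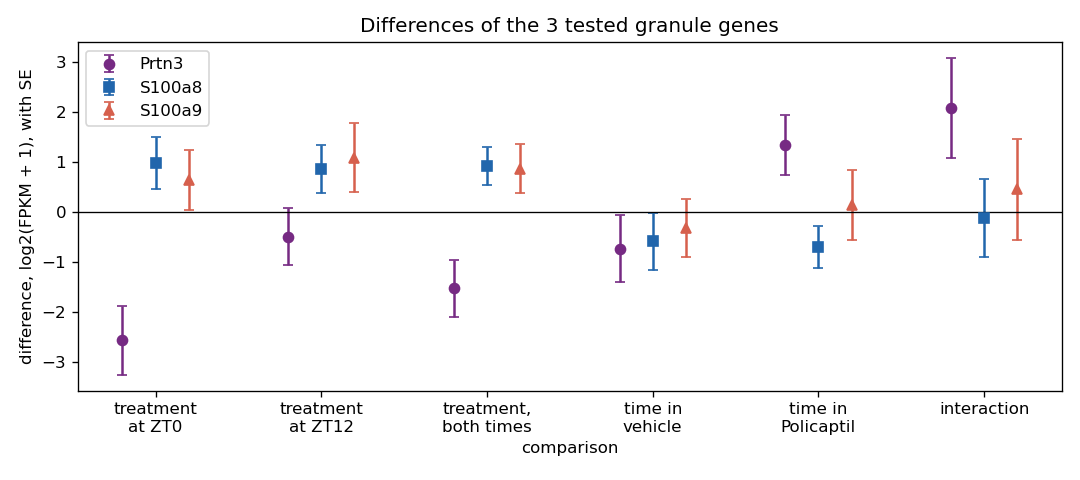
Difference of Prtn3, S100a8 and S100a9 on the log2(FPKM + 1) scale in 6 comparisons; treatment is Policaptil minus vehicle, time is ZT12 minus ZT0, interaction is the treatment difference at ZT12 minus that at ZT0, and bars are standard errors from limma. Prtn3 is negative (-2.57) where S100a8 and S100a9 are positive (0.98 and 0.64) for the treatment at ZT0, and no point has an adjusted p below 0.05.

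The spread among mice of one group was far wider for these genes than for most. The SD within groups on the log2(FPKM + 1) scale was 1.02 for Prtn3, 0.80 for S100a8 and 1.04 for S100a9, against a median of 0.14 over the genes tested. It exceeded the SD of 99.2%, 98.8% and 99.2% of these genes, respectively.

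The 10 genes whose levels ranked the livers most like Prtn3 were listed, and Prtn3 was singled out for this after its values were seen. Among 9803 genes above the level of 1 FPKM, the highest Spearman's rho over the 12 livers belonged to Galnt2 (0.92), a Golgi enzyme that starts O-linked glycans, Wfdc21 (0.90), Hpx (0.90), Itih4 (0.90) and Lcn2 (0.90). Hpx encodes hemopexin, which binds heme in plasma, Itih4 encodes an inter-alpha-trypsin inhibitor heavy chain, and Lcn2 encodes lipocalin 2, which is stored in specific granules but is also secreted by hepatocytes in the acute phase. Ranks 6 to 10 were held by Nme2 (0.88), Orm2 (0.87), Fgl1 (0.86), C4b (0.85) and Hip1r (0.85). Orm2 is an orosomucoid of the acute phase and Fgl1 a hepatocyte secretory protein. These are rank correlations over livers that share treatment, time and library, chosen as the highest of many.

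Lcn2 was 300, 304 and 142 FPKM in vehicle livers at ZT0 and 9.20, 58.8 and 11.2 FPKM in Policaptil livers at ZT0. At ZT12 it was 33.8, 239 and 407 FPKM in vehicle livers and 63.3, 139 and 22.6 FPKM in Policaptil livers. As with Prtn3, the treatments did not overlap at ZT0 and overlapped at ZT12. The same livers were low: replicates 1 and 3 of Policaptil ZT0, replicate 1 of vehicle ZT12 and replicate 3 of Policaptil ZT12. Lcn2 and Hpx were picked for their likeness to Prtn3 over these livers, so a shared order follows from that choice. Lcn2 differed between treatments by -3.59 at ZT0 (SE 0.67, adjusted p = 0.295) and by -1.34 at ZT12 (SE 1.00, adjusted p = 0.768). Hpx was 7202, 6853 and 6228 FPKM in vehicle and 3653, 4730 and 4028 FPKM in Policaptil livers at ZT0. At ZT12 Hpx overlapped between treatments, at 4777, 7350 and 8837 FPKM in vehicle and 5376, 6621 and 4028 FPKM in Policaptil livers. In bulk liver RNA, fewer cells of a type and less RNA per cell cannot be told apart, and the cell that contributed the Prtn3 reads was not tested.

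**Figure D4:**
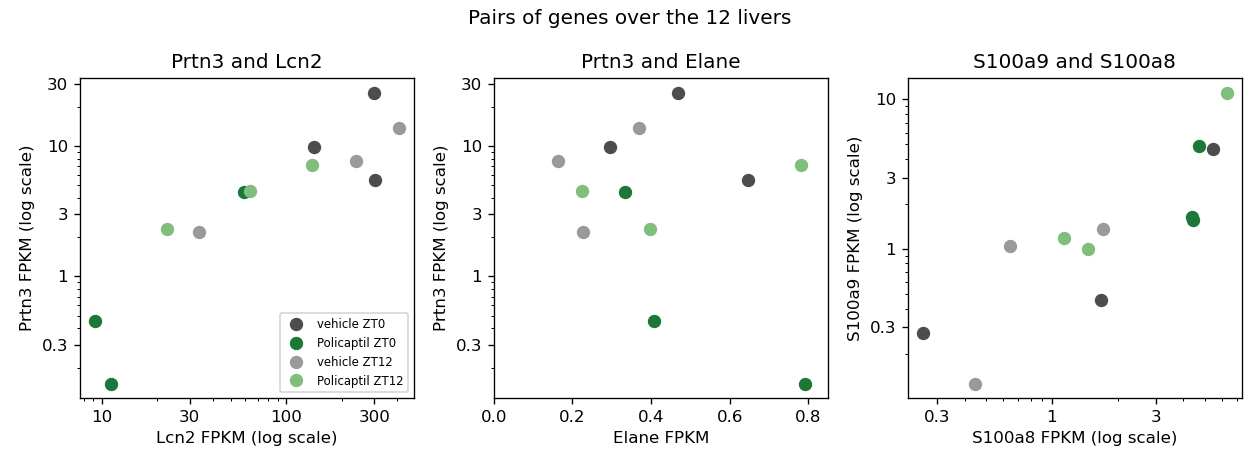
FPKM of gene pairs in the 12 livers, coloured by group, on log axes except for Elane, whose axis is linear from 0. Prtn3 follows Lcn2 (rho 0.90), which was picked for this likeness, and not its neighbour Elane (rho -0.17). S100a9 follows S100a8 (rho 0.92).

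For the mean of all 9 standardised members, the genes most alike were Tmem88 (rho 0.88), Cmtm8 (0.81), Mrps36 (0.81), Rarg (0.80) and Tnfrsf19 (0.80). The mean of the 4 azurophil members was closest to A430046D13Rik (0.88), Foxk2 (0.87), Nploc4 (0.83), Dpf2 (0.83) and Gm15545 (0.82), and that of the other 5 to Cmtm8 (0.94), the joint entry of Srcap and Tmem265 (0.83), Eva1b (0.82), Tmem51 (0.82) and Lsp1 (0.80). Lsp1, leukocyte-specific protein 1, is the one gene of these with a name from white blood cells. Each member counts equally in these means, including Ctsg, Mpo and Camp, which were above 0 in only 1, 5 and 2 livers. The genes named are the highest of 9803 compared over 12 livers, and whether they are more alike than unrelated genes was not tested.

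Markers of mature neutrophils were present at low levels. Csf3r, the receptor for granulocyte colony-stimulating factor, was above 0 in all 12 livers, from 0.0720 to 0.330 FPKM. Cxcr2, the receptor for neutrophil-attracting chemokines, reached 0.0593 FPKM and Mmp8, neutrophil collagenase, 0.0448 FPKM, and the stefins Stfa1, Stfa2, Stfa2l1 and Stfa3 were listed at 0 throughout. The summed level of 6 defining markers (Csf3r, Cxcr2, Retnlg, Mmp8, Mmp9 and Cd177) was 0.589 to 0.736 FPKM in vehicle and 0.554 to 1.10 FPKM in Policaptil livers at ZT0. At ZT12 it was 0.144 to 0.271 FPKM in vehicle and 0.221 to 0.259 FPKM in Policaptil livers. The sums thus overlapped between treatments at both times and lay higher at ZT0 than at ZT12 within both treatments, with the most at ZT0 in Policaptil replicate 2. Some single genes outside the sum did not overlap at ZT0. Clec4d was listed at 0 in vehicle and was 0.0349 to 0.165 FPKM in Policaptil livers. Slfn4 (0.0198 to 0.0344 against 0.0569 to 0.102 FPKM) and Itgam (0.0444 to 0.0911 against 0.0991 to 0.188 FPKM) were also higher under Policaptil. C5ar1 was lower (0.168 to 0.228 against 0.0765 to 0.152 FPKM). Clec4d, Slfn4, Itgam and C5ar1 averaged 0.0254 to 0.110 FPKM over all livers and were not among the genes tested. Of the genes tested, which averaged at least 1 FPKM, 9.94% did not overlap at ZT0 with lower values under Policaptil. A share for higher values or for genes this low was not computed, so how frequent such gaps are here is not known. Between these sums and the member differences no relation was tested.

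Retnlg, a resistin-like protein of neutrophils, contributed most to this difference in time. It was 0.347, 0.294 and 0.219 FPKM in vehicle and 0.112, 0.563 and 0.327 FPKM in Policaptil livers at ZT0. At ZT12 it was listed at 0 in 5 of 6 livers and was 0.0949 FPKM in vehicle replicate 3. Csf3r was 0.223, 0.210 and 0.299 FPKM in vehicle and 0.330, 0.324 and 0.202 FPKM in Policaptil livers at ZT0, and 0.167, 0.132 and 0.0720 FPKM and 0.182, 0.0810 and 0.194 FPKM at ZT12, with no overlap between times in either treatment. Groups did not overlap between times for 33.2% of tested genes in vehicle and 34.9% in Policaptil livers, so such a gap is frequent among genes averaging at least 1 FPKM. Csf3r (mean 0.201 FPKM) and Retnlg (0.163 FPKM) were below that level, and a share for genes this low was not computed. With no minimum level, the time difference had an adjusted p of 0.0550 for Retnlg and 0.154 for Csf3r in vehicle livers and of 0.150 and 0.216 in Policaptil livers.

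**Figure D5:**
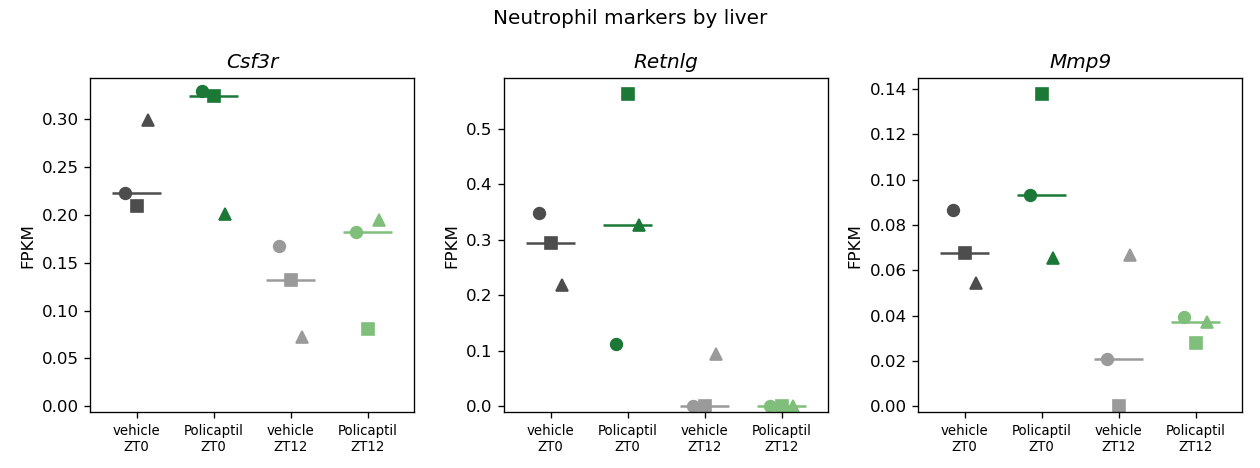
FPKM on a linear axis for the neutrophil markers Csf3r, Retnlg and Mmp9 in the 12 livers by group; symbols mark replicates 1 (circle), 2 (square) and 3 (triangle), and lines mark group medians. Retnlg is 0.112 FPKM or more in all 6 livers at ZT0 and listed at 0 in 5 of 6 livers at ZT12.

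Other genes of the granule program were read from lists written by hand, and none had an adjusted p below 0.05 in a treatment comparison. Of 13 azurophil and promyelocyte genes 5 were tested, and in treatment comparisons none had an unadjusted p below 0.05. The most abundant, Mgst1 (mean 6050 FPKM), Cebpa (185 FPKM) and Ctsc (18.3 FPKM), are expressed by hepatocytes as well. Srgn, the proteoglycan serglycin that packs granule proteins, fell by 0.67 from ZT0 to ZT12 in Policaptil livers (SE 0.15, adjusted p = 0.0286). Of 16 specific and gelatinase granule genes 7 were tested, of which Hp (mean 7376 FPKM), Wfdc21 (2201 FPKM), Lrg1 (1411 FPKM) and Lcn2 (144 FPKM) are acute-phase or secreted proteins of hepatocytes too. At ZT0 Lrg1 differed by -1.16 (adjusted p = 0.295) and Cebpe, the transcription factor of specific granule genes, by 0.33 (adjusted p = 0.459). Of the 7, 2 had an unadjusted p below 0.05 with lower and 1 with higher values, where 9.23% of all genes tested had such a p in either direction. The median difference of the 7 at ZT0 was -0.30, against -0.02 over all genes tested.

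Of 24 mature neutrophil genes only G0s2, which also inhibits lipolysis in hepatocytes, and Hdc, histidine decarboxylase, were tested. Hdc rose from ZT0 to ZT12 in vehicle livers by 1.29 (SE 0.18, adjusted p = 0.00970) and in Policaptil livers by 1.04 (SE 0.14, adjusted p = 0.00565). Of 16 genes for neutrophil attraction 6 were tested. Cxcl1, a chemokine for neutrophils, fell by 2.20 from ZT0 to ZT12 in vehicle livers (SE 0.39, adjusted p = 0.0202). It was 47.1, 14.2 and 28.7 FPKM in vehicle and 20.7, 9.95 and 4.89 FPKM in Policaptil livers at ZT0, and 3.86 to 7.28 FPKM in all 6 livers at ZT12. Its difference between treatments at ZT0 was -1.32 (SE 0.55, adjusted p = 0.538). Of 14 genes for inhibitors of granule proteases 9 were tested, and Serpina3n had an unadjusted p below 0.05 at both times, with differences of -0.88 (adjusted p = 0.309) at ZT0 and -0.60 (adjusted p = 0.729) at ZT12. Values of the near-identical Serpina1 genes are uncertain, because reads can be split among such copies or lost from them.

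Markers of other cells with myeloid transcripts were followed beside the members. Of 14 monocyte genes 4 were tested (Fn1, Plac8, S100a6 and S100a4, of which Fn1 is also a hepatocyte product), and none had an unadjusted p below 0.05 in a treatment comparison. Of 14 Kupffer cell genes all were above 0 in all livers and 10 were tested. At ZT0 5 of them had lower values under Policaptil with an unadjusted p below 0.05 and 0 an adjusted p below 0.05, where 9.23% of all genes tested had an unadjusted p below 0.05 in either direction. The median difference of the 10 was -0.47, against -0.02 over all genes tested. The list summed to 91.3 to 110 FPKM in vehicle and 68.4 to 84.2 FPKM in Policaptil livers at ZT0, and to 63.0 to 129 and 69.3 to 105 FPKM at ZT12. These sums did not overlap at ZT0, as for Prtn3 and for 9.94% of single genes tested in the direction of lower values, and their part in its difference was not tested. Erythroid genes summed to 102 to 193 FPKM in the 12 livers and overlapped between treatments at both times. Eosinophil, basophil and mast cell genes summed to at most 0.321 FPKM, with Epx, Prg2, Prg3, Cpa3 and Ms4a2 listed at 0 throughout. At ZT0 the sums were 0 to 0.0702 FPKM in vehicle and 0.117 to 0.321 FPKM in Policaptil livers, without overlap. At ZT12 they overlapped, at 0 to 0.0491 and 0 to 0.0570 FPKM. Sums this low rest on few reads, and the gap was not tested.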

How the data were processed

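Liver RNA of 12 mice was sequenced as single-end reads, and the table deposited by the authors gives FPKM for each gene in each library. The methods describe alignment to mm10 with ELAND, uniquely aligned reads and the unit RPKM, whereas the submitters' processing notes name TopHat, Cuffnorm and mm10 (GRCm38). The methods describe a stranded mRNA kit and the labels TruSeq RNA v2, so strand is uncertain. No counts were given, so depth is known only relative to other libraries and no counting error can be attached to a value. Of 24138 lines, 289 repeated a symbol. Among such lines the most abundant was used, and 23849 symbols remained. All 12 value columns were matched to libraries by name, and groups were taken from the labels, which call the samples of a group biological replicates.

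Values were analysed as log2(FPKM + 1) for the 9806 symbols with a mean of at least 1 FPKM, with limma (version 3.58.1, R version 4.3.3), a mean-variance trend in eBayes, two-sided tests and Benjamini-Hochberg adjusted p below 0.05. The study used a regularised t-test, Cyber-T, for which limma stands in. Each comparison of 2 groups was fitted on its 6 livers, and the interaction and the treatment over both times on all 12. The calculations were tested on simulated data. Read values were estimated as the lower quartile (25%) of FPKM times transcript length among 925 genes with 1 coding transcript and a mean below 0.05 FPKM. The members and gene lists were chosen with earlier results of these data known, and which values guided the choice is not recorded, so that differences of the members are descriptions. All 9 members are named. Of each list, up to 4 genes with the highest mean were eligible to be named, with any called for treatment, and the 5 genes most like the mean of the 9 members, of the 4 azurophil members and of the other 5. Further genes with an unadjusted p below 0.05, genes called for time, neighbours, defining markers and genes like Prtn3 were named after their values were seen. So were genes under 1 FPKM that did not overlap between treatments at ZT0 or were highest in Policaptil ZT12 replicate 2. Promoters were taken from RefSeq for all 9 members and searched on both strands, and protein sequences were not used here.

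Alternatives were a pseudocount of 0.1, a minimum mean of 0.1 FPKM, both together, no minimum, limma without trend, median-ratio scaling, quantile normalization, a fit over all 12 livers, the replicate number as a block, and each liver left out in turn.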

Additional observations from a re-analysis of the deposited data

How the results depend on the processing

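The number of members called was 0 in each of the 6 comparisons with limma, and it was 0 under every alternative other than leaving out a liver. As each liver was left out in turn it ran from 0 to 1 for time in Policaptil livers and was 0 in the other comparisons. The exceptions were Prtn3 without Policaptil ZT0 replicate 2 and S100a8 without Policaptil ZT12 replicate 2. With no liver left out, 12.4% of all genes tested were called for time in Policaptil livers. Members with an unadjusted p below 0.05 numbered 1 for treatment at ZT0, 2 over both times and 0 elsewhere. Without vehicle ZT0 replicate 1 they numbered 3 at ZT0, where 12.1% of all genes had such a p (9.23% with all livers), and 3 over both times (11.5% of all genes, and 10.1% with all livers). As other livers were left out the count over both times was 1 or 2. Scaling changed the sign of none of 54 member differences. With a pseudocount of 0.1, 29 of 54 moved by more than the spread between replicates, all with the sign kept, and Prtn3 at ZT0 became -3.72 (adjusted p = 0.474). Leaving out a liver changed the sign of 29 of 432 member differences, including Prtn3 at ZT12, which was 0.00 without vehicle ZT12 replicate 3. With the replicate number as a block, 0 members were called, and genes called fell from 1020 to 279 for time in vehicle and from 1212 to 709 for time in Policaptil livers. Same-numbered livers deviated together with correlations from -0.28 to 0.26, so the numbers were not treated as pairs. Mpo, Ctsg, Ngp, Camp and Ltf were listed at 0 in 7 or more of 12 livers and rested on at most 9.64 estimated reads in any liver, which limits what can be compared. Elane, above 0 in all 12, rested on 3.61 to 14.6 estimated reads.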

Other observations

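Platelet and lymphocyte genes were low as well. Of 9 platelet and megakaryocyte genes only Pf4, platelet factor 4, was tested, and its difference between Policaptil and vehicle at ZT12 was 0.47 (SE 0.12, adjusted p = 0.729, limma). Of 10 T and NK cell genes only Cd4 was tested, with a difference of 0.31 at ZT12 (SE 0.12, adjusted p = 0.729), and Nkg7 ranged from 0 to 1.27 FPKM. Of 9 B cell genes 0 reached a mean of 1 FPKM, and Igll1 and Rag1 were listed at 0 in all 12 livers. Of 10 progenitor and cell cycle genes only Stmn1 was tested (mean 1.43 FPKM), and Kit ranged from 0.279 to 0.722 FPKM. Ly6c2, a marker of classical monocytes, was highest in vehicle ZT0 replicate 1 (1.52 FPKM), Policaptil ZT12 replicate 2 (1.46 FPKM) and vehicle ZT12 replicate 1 (1.18 FPKM). For S100a8 these livers ranked 2, 1 and 10 from the highest of the 12.

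S100a10, another gene of the S100 family that is not a granule gene, fell from ZT0 to ZT12 by 0.89 in vehicle livers (SE 0.10, adjusted p = 0.00615) and by 0.86 in Policaptil livers (SE 0.11, adjusted p = 0.00493). S100a8 and S100a9 were not called in either, but their SE was wider. S100a8 differed by -0.59 (SE 0.57) and -0.70 (SE 0.43), and S100a9 by -0.32 (SE 0.58) and 0.14 (SE 0.70). Whether these genes differ from S100a10 was not tested.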
